A study of Mus musculus with 24 samples.

Results

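Elastic fibres are laid down on a scaffold of microfibrils, and the 10 mouse genes described here encode parts of both. They are the microfibril-associated glycoprotein genes Mfap2, Mfap4 and Mfap5, the fibrillin genes Fbn1 and Fbn2, the fibulin genes Fbln1, Fbln2 and Efemp2, the tropoelastin gene Eln and the latent TGF-beta binding protein gene Ltbp1. They are 10 of the 23119 genes listed in an RNA-seq table of WT and SmcHD1-mutant (KO) cells, and they were chosen because Mfap2 had the largest fall in KO neural stem cells (NSCs). The comparison of KO with WT NSCs is therefore given for all 10 as a description with no test.

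Fibrillins polymerize into microfibrils outside the cell, and Mfap2 and Mfap5 bind to them along their length. Tropoelastin is deposited on this scaffold and cross-linked by lysyl oxidases, with fibulins such as Efemp2 bringing the enzyme and its substrate together. Microfibrils also hold growth factors, since Ltbp1 tethers latent TGF-beta to fibrillin, and in the embryo fibrillins and Mfap2 are made by many tissues long before elastin appears.

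The cells were JB4/EI7HZ2, a female mouse embryonic stem cell (mESC) line from a cross of a JF1 mother with a B6 father, and a line derived from it in which a CRISPR–Cas9 guide had disrupted both copies of Smchd1. Each genotype was 1 line, so the mutation and other differences between these lines cannot be told apart. Undifferentiated mESCs were grown in serum with LIF and inhibitors of MEK and GSK3, with G418 and Zeocin present to keep both X chromosomes. Day 7 and day 9 cells passed through an epiblast-like state and were then grown as aggregates (embryoid bodies) towards early neurectoderm, whereas NSCs came from a separate protocol, with growth on gelatin, a short aggregate step and outgrowth, and were maintained in FGF2 and EGF, again with G418 and Zeocin. Each of the 8 groups of genotype and stage had 3 replicates, giving 24 libraries, and the values are FPKM, fragment counts scaled by transcript length and by library, where how the libraries were scaled is not given in the sources used here.

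Smchd1 itself was read at 13.0 to 26.4 FPKM in the 12 WT libraries and at 1.82 to 4.40 FPKM in the 12 KO libraries, so the groups matched their labels. Read totals are not given in the sources used here. Of 31400 low values 95.9% were within 0.1 of a whole multiple of the worth of 1 read, and relative read numbers derived from them spanned 0.811 to 1.15. The worth of 1 read was taken as each gene's lowest scaled value above 0, so this share is high in part by construction. Summed levels of 6 pluripotency markers lay at 2473 to 2979 FPKM in mESC libraries and at 5.72 to 12.6 FPKM in NSC libraries, and 8 markers of neural stem cells and radial glia summed to 4195 to 7260 FPKM in NSCs. Within the NSCs the neural stem cell sum was lower in KO (4195 to 5045 FPKM) than in WT libraries (5667 to 7260 FPKM), and the sum of 4 astrocyte and ependymal markers was higher (45.8 to 135 against 9.19 to 43.2 FPKM). These shifts stand beside every NSC result that follows, and their part in those results was not tested. In bulk RNA, fewer cells that make a transcript and less transcript per cell cannot be told apart.

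In mm9 coordinates Mfap2 lies on the plus strand of chromosome 4 from 140566339 to 140571899 and has up to 9 exons in its annotated coding transcripts. Mfap4 lies at 11:61298946–61302206 and Mfap5 at 6:122463694–122479305, both on the plus strand. The fibrillin gene Fbn1, at 2:125126330–125332174 on the minus strand, has up to 66 exons. Among the fibulins, Fbln1 lies at 15:85036438–85116724, Fbln2 at 6:91162758–91222534 and Efemp2 at 19:5474690–5481854, all on the plus strand. Eln lies at 5:135178466–135223124 (minus) and Ltbp1 at 17:75404869–75792307 (plus). In the GENCODE annotation of this build Fbn1 overlaps Gm9913 on the opposite strand and Ltbp1 overlaps Gm6276 on its own strand, and the other members have no overlapping gene there. The expression table lists no gene that overlaps any of the 10.

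Promoter windows of 300 bases, from 250 before to 50 after an annotated start, were taken from RefSeq (build GRCm38.p6, not the build of the expression table) and were matched for 6 of the 10 members. They are shown for Mfap2 and Fbln2, the members with the lowest KO to WT ratios in NSCs, with every CG dinucleotide in capitals, since CG content is a base property on which promoters differ widely. The Mfap2 window lies at chr4:141010431-141010730 (plus strand) and the Fbln2 window at chr6:91212514-91212813 (plus strand).
Mfap2: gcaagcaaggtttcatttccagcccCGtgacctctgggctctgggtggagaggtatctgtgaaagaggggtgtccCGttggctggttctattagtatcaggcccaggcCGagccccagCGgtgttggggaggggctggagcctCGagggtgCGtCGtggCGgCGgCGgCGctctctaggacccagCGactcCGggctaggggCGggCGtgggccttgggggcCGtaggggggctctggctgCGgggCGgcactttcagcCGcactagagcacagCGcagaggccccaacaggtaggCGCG
Fbln2: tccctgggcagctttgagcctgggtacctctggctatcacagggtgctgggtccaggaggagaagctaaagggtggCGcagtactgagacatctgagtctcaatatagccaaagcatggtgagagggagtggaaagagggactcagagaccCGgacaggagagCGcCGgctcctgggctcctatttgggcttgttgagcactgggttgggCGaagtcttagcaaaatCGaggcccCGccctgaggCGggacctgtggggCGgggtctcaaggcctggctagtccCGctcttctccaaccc
The Mfap2 window holds 22 CG dinucleotides and the Fbln2 window 10, against a median of 7 over 32851 windows in the table. At least as many as in Mfap2 were found in 23.1% of all windows, and at least as many as in Fbln2 in 43.5%. A second annotated Mfap2 start has a window with 6. In the other matched members the count ran from 7 in one Ltbp1 window to 41 in one Efemp2 window. By its richest window Fbln2 (10) was the lowest of the 6 matched members and Mfap2 (22) the third highest. Methylation was not measured in these libraries.

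Mfap2, which binds fibrillin and can also bind TGF-beta family ligands, was all but absent from mESCs, present at day 7 and day 9 in both genotypes, present in WT NSCs and nearly absent from KO NSCs. In WT NSCs the 3 replicates were at 20.7, 24.9 and 20.7 FPKM, and in KO NSCs at 1.47, 0.220 and 0.420 FPKM. The highest KO library was thus far below the lowest WT library. In reads the KO values are worth 6, 1 and 2 reads, and the WT values about 93, 119 and 100 reads.

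The WT to KO ratio of mean FPKM for Mfap2 in NSCs was 31.4, and the ratio of summed reads (312 to 9) was 34.7. On the log2(FPKM + 1) scale the KO mean was lower by a difference of -3.82, a value that depends on the added constant and became -5.11 with 0.1 in place of 1. Leaving out any 1 NSC library kept it between -4.13 and -3.62.

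Before the NSC stage Mfap2 rose from mESCs to day 7 and from day 7 to day 9 in both genotypes. Mfap2 was listed at 0.225, 0 and 0 FPKM in WT mESCs and at 0, 0.241 and 0 FPKM in KO mESCs, which is 1 read in each genotype. At day 7 it stood at 34.5, 44.0 and 46.1 FPKM in WT and at 30.5, 36.5 and 44.6 FPKM in KO cells. At day 9 it was at 69.0, 66.9 and 71.1 FPKM in WT and at 57.0, 61.0 and 55.7 FPKM in KO cells.

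The day 7 libraries of the genotypes overlapped, and the day 9 KO libraries all lay below the WT libraries. In descending order the group means of Mfap2 were 69.0 ± 2.12 (SD, n = 3) in WT day 9, 57.9 ± 2.77 in KO day 9, 41.6 ± 6.196 in WT day 7, 37.2 ± 7.04 in KO day 7, 22.1 ± 2.41 in WT NSCs and 0.704 ± 0.673 FPKM in KO NSCs, followed by both mESC groups. Neighbours in this order whose libraries overlapped were WT and KO at day 7, KO NSCs and KO mESCs, and the mESC groups. The log2 difference of KO from WT at day 9 was -0.25 (SE 0.19, limma, adjusted p = 0.589), so the separation did not pass the test in the fit of all groups, although it did with an adjusted p of 0.0367 when the 6 day 9 libraries were fitted alone.

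**Figure D1:**
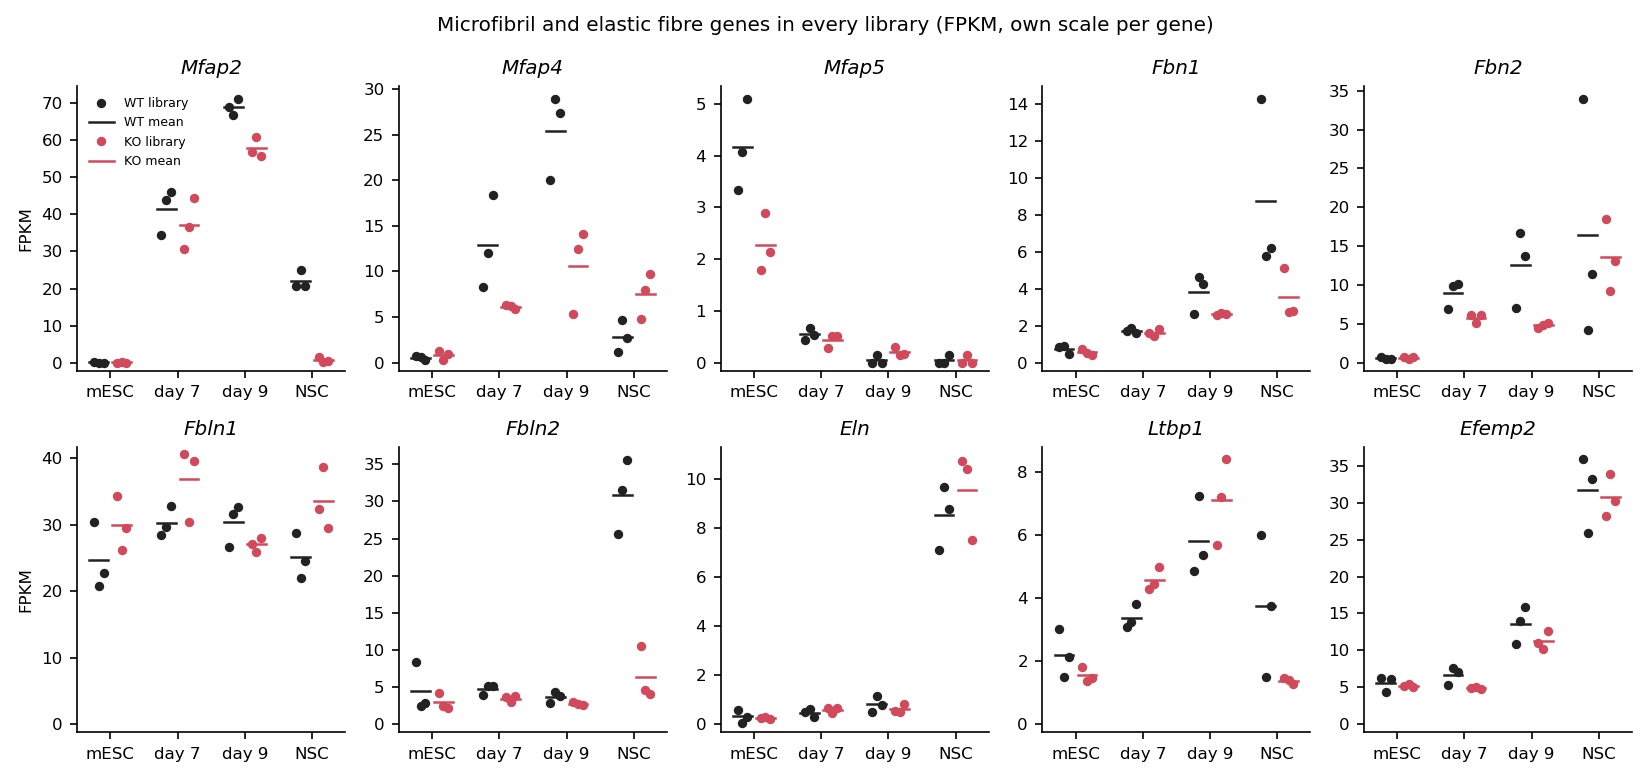
FPKM of each member (vertical axis, own scale per gene) in the 4 stages, with a point per library and a line at the mean of 3 libraries, WT in black and KO in red. Mfap2 is at 20.7 to 24.9 FPKM in WT NSCs and at 0.220 to 1.47 FPKM in KO NSCs, whereas Eln and Efemp2 are high in the NSCs of both genotypes.

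Among the fibulins, Fbln2 and Fbln1 went opposite ways in NSCs and Efemp2 stayed level. Fbln2, a fibulin that binds fibrillin, tropoelastin and basement membrane proteins, was at 25.6, 31.6 and 35.6 FPKM in WT NSCs and at 10.5, 4.62 and 4.03 FPKM in KO NSCs, a ratio of means of 4.84. All 3 KO libraries were below all 3 WT libraries, with KO replicate 1 the nearest, and the log2 difference was -2.201 (-2.57 without KO replicate 1). Unlike Mfap2, Fbln2 remained well above 1 read in every KO library.

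Fbln1, a fibulin of basement membranes and fibronectin matrices, was at 28.8, 22.1 and 24.5 FPKM in WT NSCs and at 32.4, 38.7 and 29.4 FPKM in KO NSCs (log2 difference 0.40). The gap between the groups was small, from 28.8 to 29.4 FPKM. Efemp2, also called fibulin-4, was at 35.9, 25.9 and 33.3 FPKM in WT and 28.3, 33.9 and 30.3 FPKM in KO NSCs, where the groups overlapped (log2 difference -0.03).

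Both fibrillins were variable in WT NSCs. Fbn1, the main fibrillin of adult tissue, was at 14.3, 5.76 and 6.19 FPKM in WT NSCs and at 5.09, 2.76 and 2.81 FPKM in KO NSCs, a log2 difference of -1.03 that was -0.65 without WT replicate 1. Fbn2, the fibrillin most used in the embryo, lies at 18:58168277–58369580 on the minus strand in mm9 and has up to 67 exons. It was at 33.9, 4.13 and 11.4 FPKM in WT NSCs and at 18.4, 9.25 and 13.1 FPKM in KO NSCs. The WT libraries of Fbn2 spanned a wider range than the KO libraries and enclosed them. Its log2 difference of 0.11 became 0.82 without WT replicate 1 and -0.56 without WT replicate 2, so the direction rests on single libraries, and its ratio of KO to WT means was 0.824 where that of Fbn1 was 0.407.

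Ltbp1 was at 6.02, 1.49 and 3.74 FPKM in WT NSCs and at 1.46, 1.40 and 1.28 FPKM in KO NSCs, with a log2 difference of -0.87 that was -0.53 without WT replicate 1 and -1.28 without WT replicate 2. The KO libraries were close together, and the lowest WT library was within 0.1 FPKM of them. WT replicate 1 was the highest of the 6 NSC libraries for Fbn1, Fbn2 and Ltbp1, but not for Mfap2 or Fbln2.

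Mfap4, a fibrinogen-related protein that binds elastin and fibrillin, was higher in KO NSCs, at 4.79, 8.00 and 9.70 FPKM against 1.16, 4.63 and 2.69 FPKM in WT (log2 difference 1.21, or 0.85 without WT replicate 1). The highest WT and the lowest KO library were near each other. Eln was at 7.11, 9.68 and 8.78 FPKM in WT and 10.8, 10.4 and 7.50 FPKM in KO NSCs (log2 difference 0.14), and Mfap5, the close relative of Mfap2, was listed at 0 or at 1 read in all 6 libraries.

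In all, 4 of the 10 members were lower in KO than in WT NSCs with no overlap of libraries (Mfap2, Fbln2, Fbn1 and Ltbp1) and 2 were higher (Mfap4 and Fbln1). Over the 12105 genes tested, 8.54% were lower and 8.16% higher without overlap. Since Mfap2 was chosen on this comparison and the other members were grouped with it with its result in view, nothing is read from these counts. The median log2 difference was -0.03 over the 9 tested members and 0.01 over all genes tested.

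**Figure D2:**
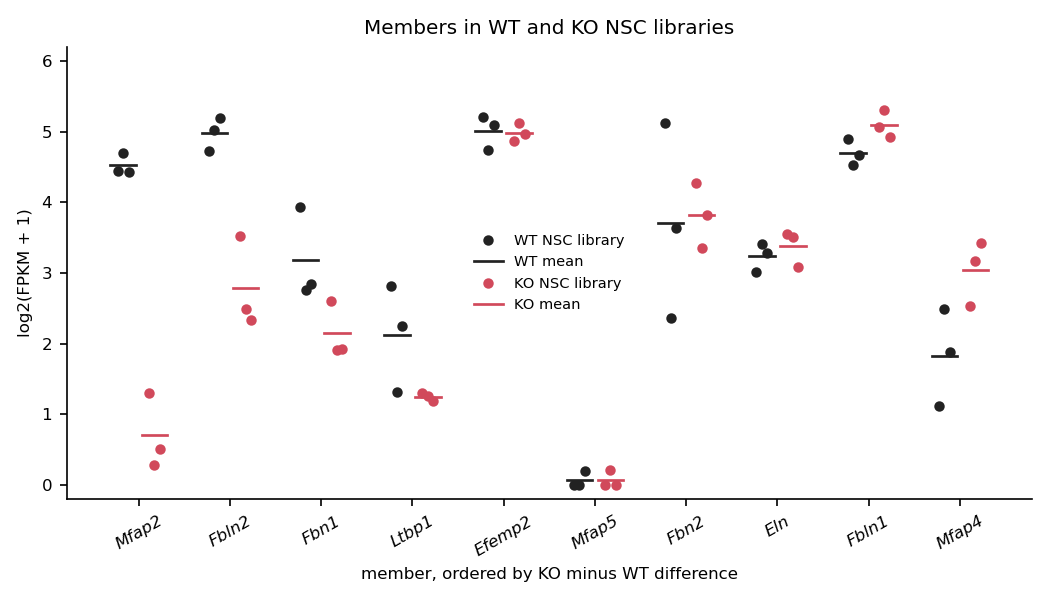
Log2(FPKM + 1) of the 10 members (vertical axis) in the 3 WT (black) and 3 KO (red) NSC libraries, ordered from the most negative to the most positive difference, with a line at each group mean. Mfap2 (-3.82) and Fbln2 (-2.201) lie at the left and Mfap4 (1.21) at the right, and the WT libraries of Fbn2 are the most spread.

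The markers that could bring other matrix-producing cells into these cultures were read beside these values. In NSCs the sum of 10 mesenchyme and fibroblast markers was 49.2 to 58.8 FPKM in WT and 39.8 to 66.9 FPKM in KO libraries, so the groups overlapped. The 7 smooth muscle and pericyte markers summed to 0.637 to 2.04 FPKM in WT and 0.548 to 2.06 FPKM in KO libraries, with Rgs5 at 0 in all WT and Des at 0 in all KO libraries. The 5 endothelial markers summed to 0.605 to 8.74 FPKM in WT and 0.445 to 1.31 FPKM in KO libraries. The 6 neural crest markers summed to 26.9 to 43.0 FPKM in WT and 27.0 to 29.5 FPKM in KO libraries, and Foxd3 was at 0 in both groups. Other lists did separate the genotypes in NSCs. The 6 endoderm markers summed to 0 to 0.176 FPKM in WT and 1.96 to 3.52 FPKM in KO libraries, with Sox17 and Afp at 0 in both. Gata4 and Foxa1 were at 0 in WT only and Gata6 in KO only, and 2 of the 6 had a mean of at least 1 FPKM in KO. The 6 pluripotency markers summed to 10.5 to 12.6 FPKM in WT and 5.72 to 9.99 FPKM in KO libraries. Of these, 2 in WT and 1 in KO had a mean of at least 1 FPKM, and Zfp42 was at 0 in both. The part of any of these cell types in the NSC values was not tested.

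Outside NSCs the members could be tested, and few differences between the genotypes were called, although the libraries of more members did not overlap. Calls were made at an adjusted p below 0.05 in a limma fit of all 8 groups on log2(FPKM + 1), and 9 members were tested, since Mfap5 had a mean of 0.972 FPKM over the 24 libraries, under the minimum of 1. Eln passed that minimum through its NSC values alone, and Mfap5 missed it after falling from its mESC level, so counts over the tested members are no measure of the 10 together. The p-values measure the spread between replicates of 1 line per genotype.

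In mESCs none of the 9 was called, and none had an unadjusted p under 0.05, against 7.66% of all tested genes (of all tested genes 0.116% were called higher in KO and 0.413% lower). The log2 differences ran from -0.36 for Fbln2 to 0.28 for Fbln1, each with an SE between 0.14 and 0.43. That of Fbln2 was 0.09 without WT replicate 1 and -0.64 without WT replicate 2, so its direction rests on single libraries. Mfap5 had its highest levels in mESCs, at 3.34, 4.07 and 5.09 FPKM in WT and at 1.79, 2.89 and 2.15 FPKM in KO mESCs. The KO libraries all lay below the WT libraries, while 5.93% of all tested genes were lower and 5.07% higher without overlap in mESCs. With no minimum level, where 18156 genes were tested, the Mfap5 difference of -0.66 (SE 0.14) passed the test (limma, adjusted p = 0.0234). In the same libraries the sum of the smooth muscle and pericyte markers (5.18 to 9.27 FPKM in WT and 2.58 to 3.42 FPKM in KO) and that of the mesenchyme and fibroblast markers (12.01 to 19.3 and 8.86 to 11.9 FPKM) were lower in KO without overlap, with Col3a1, Prrx1, Lum and Dcn at 0 throughout. The sum of the 8 neural stem cell and radial glia markers was higher (451 to 477 against 404 to 449 FPKM). Of these 8, 5 had a mean of at least 1 FPKM in mESCs of each genotype. The pluripotency sums overlapped, and the part of these shifts in the Mfap5 difference was not tested.

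At day 7 none of the 9 was called either (1.18% of all tested genes were called higher and 2.5% lower), and Mfap4 and Efemp2 had an unadjusted p under 0.05, against 13.9% of all tested genes. Mfap4 was at 8.29, 12.1 and 18.4 FPKM in WT and at 6.32, 6.18 and 5.86 FPKM in KO cells. The KO libraries were close together below a wide WT range, with a log2 difference of -0.90 (SE 0.34, limma, adjusted p = 0.195). Fbn2 was at 6.91, 9.86 and 10.1 FPKM in WT and 6.08, 5.16 and 6.14 FPKM in KO cells (log2 difference -0.54, SE 0.43, adjusted p = 0.673).

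Efemp2 at day 7 was at 5.31, 7.63 and 7.11 FPKM in WT and 4.90, 5.06 and 4.75 FPKM in KO cells (log2 difference -0.37, SE 0.15, limma, adjusted p = 0.243). Ltbp1 had the opposite sign, at 3.10, 3.23 and 3.81 FPKM in WT and 4.30, 4.46 and 4.99 FPKM in KO cells (log2 difference 0.35, SE 0.25, adjusted p = 0.621). With Fbln2, 4 members were lower and Ltbp1 alone was higher in KO day 7 cells without overlap, against 12.3% and 11.6% of all tested genes.

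At day 9 Mfap4 was lower in KO cells, and it was the 1 member called (2.58% of all tested genes were called higher and 4.11% lower). Its replicates were at 20, 28.9 and 27.4 FPKM in WT and at 5.34, 12.5 and 14.1 FPKM in KO cells. All KO libraries lay below all WT libraries, and KO replicate 1 lay furthest down. The log2 difference was -1.26 (SE 0.34, limma, adjusted p = 0.0273). The call was lost without KO replicate 1 (log2 difference -0.87, adjusted p = 0.212), without WT replicate 2 (adjusted p = 0.128), without WT replicate 3 (0.102), with 0.1 as the added constant (0.131) and with the day 9 libraries fitted alone (0.0822).

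Fbn2 at day 9 was at 7.07, 16.7 and 13.7 FPKM in WT and at 4.47, 4.82 and 5.10 FPKM in KO cells. The KO libraries were again tight and below the WT libraries, and the log2 difference of -1.15 (SE 0.43) did not pass the test (limma, adjusted p = 0.133). It did pass when the day 9 libraries were fitted alone (0.0369) or with same-numbered libraries paired as a replicate block (0.0206). In the fit of all 8 groups the scattered WT NSC libraries of Fbn2 enter the shared estimate of its spread. Fbn1 was at 2.61, 4.65 and 4.23 FPKM in WT and 2.55, 2.70 and 2.60 FPKM in KO day 9 cells (log2 difference -0.39, adjusted p = 0.457), where WT replicate 1 lay among the KO libraries.

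Of the 9 tested members 8 had a negative and 1, Ltbp1, a positive difference at day 9, with a median of -0.25 against 0 over all genes tested. Members lower without overlap were Mfap2, Mfap4 and Fbn2, against 16.8% of all tested genes. Over all tested genes 15.4% were higher without overlap. Mfap5 was at 0, 1 and 0 reads in WT and 2, 1 and 1 reads in KO day 9 cells, a tie at 1 read that FPKM lists as 0.1452 and 0.1454, so it is not counted as separate and no fold is given. The share of higher genes among all called at day 9 was 38.6% as deposited and 22.7% with every library scaled to the same sum of FPKM.

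Aggregates differed between the genotypes in cell type markers at the stages where Mfap4 and Fbn2 separated. At day 9 the 10 mesenchyme and fibroblast markers summed to 30.01 to 83.8 FPKM in WT and to 11.7 to 17.9 FPKM in KO cells, and 3 of the 7 tested (Col1a1, Col1a2 and Col3a1, all collagen chains) were called lower. Col3a1 was at 9.55 to 30.5 FPKM in WT and at 0.368 to 0.851 FPKM in KO day 9 libraries. The 6 floor plate and notochord markers summed to 88.0 to 262 FPKM in WT and 7.22 to 10.0 FPKM in KO cells at day 7, and to 127 to 221 and 11.2 to 60.1 FPKM at day 9. The 6 endoderm markers summed to 47.3 to 119.5 FPKM in WT and 0.893 to 3.25 FPKM in KO cells at day 7, and to 5.31 to 13.6 and 2.94 to 4.82 FPKM at day 9.

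The mesenchyme sum was also lower at day 7, at 21.0 to 28.7 FPKM in WT and 13.6 to 16.5 FPKM in KO cells, and so was the endothelial sum at day 7 (11.04 to 16.9 against 5.94 to 8.95 FPKM) and day 9 (8.23 to 17.9 against 3.64 to 7.78 FPKM). Of the 5 floor plate and notochord markers tested, 4 were called lower in KO cells at day 7 and 5 at day 9. The 7 smooth muscle and pericyte markers summed to 85.6 to 121 FPKM in WT and 45.7 to 55.8 FPKM in KO cells at day 7, and to 48.2 to 83.0 and 42.5 to 76.2 FPKM at day 9. At day 7 the astrocyte and ependymal sum (5.90 to 12.1 FPKM in WT and 0.963 to 1.73 FPKM in KO) and the neural crest sum (7.06 to 7.36 and 5.66 to 6.89 FPKM) were lower in KO without overlap as well. The part of these cell types in the Mfap4 and Fbn2 differences was not tested.

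Whether the KO effect changed from mESCs to the aggregates was tested as the difference of differences. None of the 9 was called for day 7 (1.68% of all tested genes were called in either direction) or for day 9 (2.68%). At an unadjusted p under 0.05 there was 1 member at day 7, Mfap4, and there were 2 at day 9, Mfap4 and Fbln1, against 9.84% and 12.4% of all tested genes. The largest change among the 9 was that of Mfap4 at day 9, a log2 value of -1.48 (SE 0.49, limma, adjusted p = 0.142). It was called with same-numbered libraries paired as a replicate block (adjusted p = 0.0289). With no minimum level Mfap5 was called for day 9 (0.85, SE 0.20, adjusted p = 0.0178), where it is at 0 to 2 reads in each library, and not for day 7 (0.55, adjusted p = 0.235).

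**Figure D3:**
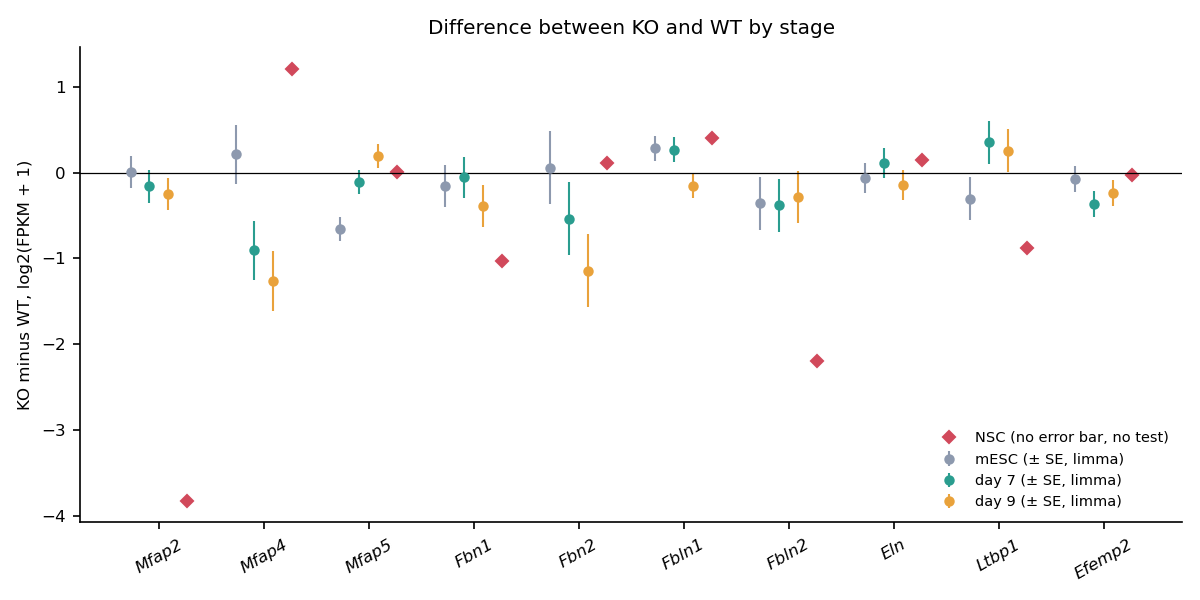
KO minus WT on the log2(FPKM + 1) scale (vertical axis) for each member in mESCs, day 7 cells, day 9 cells (mean ± SE of the limma fit, 3 libraries per group) and NSCs (difference of means with no error bar and no test). Mfap4 is at -0.90 and -1.26 at day 7 and day 9 but at 1.21 in NSCs, and Mfap2 is near 0 until NSCs, where it is at -3.82. The Mfap5 bars come from the fit with no minimum level.

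Over differentiation most members rose, each in its own order, and Mfap5 fell. From mESCs to day 7, 4 of the 9 tested members were called higher in WT and 5 in KO cells, and none of the 9 was called lower, against 29.1% of all genes called higher and 30.2% lower in WT and 29.5% and 31.8% in KO. Mfap2, Mfap4, Fbn1 and Fbn2 were called in both genotypes and Ltbp1 in KO. Without WT mESC replicate 1, in which Fbln1, Fbln2 and Ltbp1 were highest of the WT mESC libraries, these 3 were called as well and the WT count was 7. Whether the rise of Ltbp1 differed between the genotypes is the difference of differences for day 7, in which its value was 0.66 (SE 0.35, adjusted p = 0.590).

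Mfap5, which was left out of those 9, went the other way. It was at 3.34, 4.07 and 5.09 FPKM in WT mESCs, at 0.436, 0.671 and 0.531 FPKM in WT day 7 cells and at 0, 0 and 0.146 FPKM in WT NSCs. In KO cells it went from 1.79, 2.89 and 2.15 FPKM to 0.274, 0.516 and 0.515 FPKM at day 7 and to 0, 0.155 and 0 FPKM in NSCs. With no minimum level it was the member called lower at day 7 against mESCs in WT (log2 difference -1.73, SE 0.14, limma, adjusted p = 2.43e-09) and in KO (-1.18, adjusted p = 4.86e-07), beside the same higher calls.

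Mfap2 rose most, from 1 read to 537 reads in WT (ratio 537, exact 95% interval 96.0 to 21250) and from 1 to 490 reads in KO cells (ratio 490, interval 87.5 to 19390), intervals that cover counting error only. Its fitted log2 difference of 5.30 in WT depends on the added constant and is no bound (8.12 with 0.1), and it was called under both (adjusted p = 2.84e-15 and 5.10e-11). Mfap4 rose by a log2 difference of 3.10 (SE 0.34, adjusted p = 1.31e-07) in WT and 1.99 (adjusted p = 4.04e-05) in KO cells. For Fbn2 the values were 2.67 (SE 0.43, adjusted p = 2.01e-05) and 2.07 (adjusted p = 0.000288), in the same interval as both glycoprotein genes.

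Fbn1 rose less, by 0.65 (SE 0.24, adjusted p = 0.0254) in WT and 0.75 (adjusted p = 0.0104) in KO cells. The WT call was lost without mESC replicate 3 (0.107), day 7 replicate 1 (0.0513) or day 7 replicate 2 (0.0688). Fbln1 was near 30 FPKM throughout, between 20.8 and 40.6 FPKM in all 24 libraries, and is the member with the lowest ratio of its highest to its lowest library.

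From day 7 to day 9, 4 members were called higher in WT (Mfap2, Mfap4, Fbn1 and Efemp2) and none of the 9 lower, against 18.5% and 15.3% of all tested genes. In KO cells 2 were called higher (Mfap2 and Efemp2) and 1, Fbln1, lower, against 17.2% and 13.4%. The WT count was 2 without WT day 9 replicate 2 or replicate 3, and the KO count of 3 was 1 without KO day 7 replicate 1 or KO day 9 replicate 2. Efemp2, whose product is needed for elastin cross-linking, went from 5.31, 7.63 and 7.11 FPKM to 10.9, 14.0 and 15.8 FPKM in WT cells (log2 difference 0.92, SE 0.15, adjusted p = 6.76e-05). In KO cells it went from 4.90, 5.06 and 4.75 FPKM to 11, 10.2 and 12.6 FPKM (1.05, adjusted p = 1.87e-05).

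Every day 9 library of Efemp2 was above every day 7 library in both genotypes, and no alternative changed either call. Mfap2 rose by 0.73 (SE 0.19, adjusted p = 0.00542) in WT and 0.64 (adjusted p = 0.0144) in KO cells, the latter lost without day 7 replicate 1 (0.0839) or day 9 replicate 2 (0.0506), and both were lost with 0.1 as the added constant. Mfap4 (0.97, adjusted p = 0.0342) and Fbn1 (0.81, adjusted p = 0.0134) rose in WT cells, and each call was lost without WT day 9 replicate 2 (0.106 and 0.0695) or replicate 3 (0.0926 and 0.0528). The Mfap4 call was also lost without WT day 7 replicate 1 (0.160) or replicate 2 (0.0782) and with 0.1 as the added constant (0.107). The fall of Fbln1 in KO cells (-0.42, SE 0.14, adjusted p = 0.0290) did not survive the loss of any library but KO day 7 replicate 2 (adjusted p 0.0557 to 0.122), nor the scaling of every library to the same sum of FPKM (0.0639). With no minimum level Mfap5 was called lower at day 9 in WT (-0.56, SE 0.14, adjusted p = 0.00503), where it is at 0 or 1 read in each library.

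NSCs, which came from a separate protocol, were set against mESCs within each genotype. These tests are no test of KO against WT NSCs. The members were also grouped with an NSC result in view, so the counts of calls are a description. Of the 7 tested members other than Mfap2 and Eln, 5 were called higher in WT NSCs and 5 in KO NSCs, in both cases Mfap4, Fbn1, Fbn2, Fbln2 and Efemp2. Over all tested genes 36.9% were called higher and 38.3% lower in WT, and 37.7% and 38.2% in KO. Fbln1 and Ltbp1 were not called in either genotype. The WT difference of Ltbp1 (0.47, limma, adjusted p = 0.0942) was called without WT mESC replicate 1 (0.0374) or WT NSC replicate 2 (0.000665), and fell to 0.13 without WT NSC replicate 1. With no minimum level, where all 9 members other than Mfap2 were tested, 6 were called higher in each genotype, Eln being the sixth, and Mfap5 was called lower (log2 difference -2.29 in WT and -1.63 in KO, adjusted p = 9.85e-12 and 1.92e-09).

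Eln, low in every mESC and aggregate library (0.0572 to 1.13 FPKM), was at 7.11 to 10.8 FPKM in all 6 NSC libraries. In the fit with no minimum level, which did not keep it for its NSC values, its log2 difference from mESCs was 2.87 (limma, adjusted p = 6.25e-12) in WT and 3.07 (adjusted p = 1.99e-12) in KO. Efemp2 rose alongside, by 2.31 (SE 0.15, adjusted p = 6.45e-12) in WT and 2.35 (adjusted p = 4.39e-12) in KO. In NSCs the WT and KO libraries of both genes overlapped, unlike those of Mfap2.

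The remaining members rose by unlike amounts. Fbln2 rose from 8.31, 2.38 and 2.87 FPKM in WT mESCs to 25.6, 31.6 and 35.6 FPKM in WT NSCs (log2 difference 2.67, SE 0.30, adjusted p = 6.75e-08), and in KO from 4.13, 2.49 and 2.22 FPKM to 10.5, 4.62 and 4.03 FPKM (0.83, adjusted p = 0.0175). The KO call was lost without KO NSC replicate 1 (0.46, adjusted p = 0.165), KO mESC replicate 2 (0.0561) or KO mESC replicate 3 (0.0712). Fbn1 rose by 2.39 (adjusted p = 9.96e-09) and 1.52 (7.19e-06), and Fbn2 by 3.08 (1.68e-06) and 3.13 (1.24e-06). Mfap4 rose by 1.197 (0.00365) in WT and 2.197 (6.68e-06) in KO, while its highest levels were those of the day 9 cells.

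Scaling every library to the same sum of FPKM moved the median log2 difference of all tested genes by 0.19 (WT) and 0.18 (KO) from mESCs to day 7, by 0.12 (WT) from day 7 to day 9, and by 0.37 (WT) and 0.43 (KO) from mESCs to NSCs. The share of higher genes among all called then went from 49.1% to 66.3% (WT) and from 48.1% to 63.3% (KO) for day 7 against mESCs, from 54.7% to 72.2% for WT day 9 against day 7, and from 49.1% to 66.2% (WT) and 49.7% to 68.3% (KO) for NSCs against mESCs. With that scaling Fbln1 was called higher in NSCs, with a log2 difference of 0.47 (adjusted p = 0.00630) in WT and 0.66 (0.000278) in KO, where the medians of all genes were 0.36 and 0.43. Ltbp1 was also called higher in WT NSCs (0.78, adjusted p = 0.00753). Mfap4, Fbn1, Fbn2, Fbln2 and Efemp2 kept both their sign and their call in NSCs under this scaling.

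The members' levels per length also changed rank. In mESCs Fbln1 was the highest member (24.7 ± 5.09 FPKM in WT, SD, n = 3), followed by Efemp2 (5.58 ± 1.03). At day 9 in WT cells Mfap2 (69.0 ± 2.12), Fbln1 (30.4 ± 3.20) and Mfap4 (25.4 ± 4.76) led. In WT NSCs Efemp2 (31.7 ± 5.22), Fbln2 (30.9 ± 5.06), Fbln1 (25.1 ± 3.39) and Mfap2 (22.1 ± 2.41) were the 4 highest, each overlapping its neighbour in this order. In KO NSCs Fbln1 (33.5 ± 4.74) and Efemp2 (30.8 ± 2.84) overlapped each other and were above all libraries of Fbn2 (13.6 ± 4.62), and Fbln2 and Mfap2 had dropped out of the leading 4.

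The wider pathway was read in 4 lists of genes. Their counts of calls are to be read against all tested genes, of which 1.18% were called higher and 2.5% lower in KO at day 7, and 2.58% and 4.11% at day 9. Of 26 other elastic fibre and microfibril genes, 14 were tested, and none was called in mESCs. At day 7, 2 were called lower in KO, Thsd4 (log2 difference -1.17, SE 0.20, limma, adjusted p = 0.000758), which promotes fibrillin assembly, and Vcan (-1.22, SE 0.24, adjusted p = 0.00395), a proteoglycan that binds fibrillin. At day 9, 2 were called higher, Ltbp4 (0.98, adjusted p = 0.0184), a latent TGF-beta binding protein of elastic fibres, and Loxl1 (0.90, adjusted p = 0.00300), an elastin cross-linking enzyme. Vcan (-1.67, adjusted p = 9.09e-05) and Mmrn2 (-0.83, adjusted p = 0.0384), a multimerin of endothelial cells, were called lower at day 9. The median over the list was -0.28 at day 9, against 0 over all genes.

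TGF-beta and BMP genes are of interest because microfibrils store these ligands. Of 22 listed, 17 were tested and none was called in mESCs, 4 were called lower in KO at day 7 and 4 at day 9, and none higher. The ligand genes Tgfb1 and Tgfb2 had mean levels of 4.17 and 2.18 FPKM in WT and 0.534 and 0.184 FPKM in KO day 7 cells (log2 differences -1.68 and -1.36, adjusted p = 0.00166 and 0.00132). The co-receptor gene Tgfbr3 stood at 3.12 in WT and 0.766 FPKM in KO (-1.22, adjusted p = 1.36e-05), and the fourth was Tgfbi, which encodes a matrix protein induced by TGF-beta. These 4 were also those called at day 9, with log2 differences from -1.39 for Tgfb1 to -0.79 for Tgfbr3.

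Of 8 tested genes of the 10 encoding fibronectin and its integrin receptors, Itgav, the alpha-V chain that binds fibrillin and latent TGF-beta, was called lower at day 7 (-0.54, adjusted p = 0.0265) and day 9 (-0.57, adjusted p = 0.0121). Of 6 tested among 14 elastases, metalloproteinases and inhibitors, the matrix-bound inhibitor gene Timp3 was called lower at day 7 (-2.21, adjusted p = 0.000529) and day 9 (-2.06, adjusted p = 0.000597). Timp4 was called lower at day 7 (-1.78, adjusted p = 0.000133) and Bmp1, a procollagen proteinase, at day 9 (-0.45, adjusted p = 0.0291). No gene of these 2 lists was called in mESCs. These day 7 and day 9 differences stand beside the same marker shifts as those of Mfap4, whose part was not tested.

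In NSCs the lists are a description too, beside the 8.16% of all tested genes that were higher and the 8.54% that were lower in KO without overlap. Among the 14 other elastic fibre genes 5 were higher in KO without overlap, which were Emilin1 (33.4 ± 7.18 to 51.5 ± 7.97 FPKM, SD, n = 3), Ltbp3 (19.7 ± 4.91 to 31.3 ± 5.21), Furin (7.82 ± 0.719 to 13.4 ± 1.82), which cleaves profibrillin, Ltbp4 and Loxl1, and Thsd4 alone was lower, at means of 0.113 and 0.0256 FPKM. Of the TGF-beta and BMP genes 5 of 17 were higher (among them Bmp7, 3.12 ± 1.38 to 6.90 ± 1.47 FPKM, and Ltbp3 again) and 1, Tgfbi, lower. The median log2 differences were -0.09 over the 14 and 0.29 over the 17, against 0.01 over all genes tested.

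Matrix proteinase genes were among the lower ones. Mmp2, a gelatinase gene, went from 28.5 ± 20.2 FPKM in WT to 9.53 ± 5.46 FPKM in KO NSCs, and its membrane-bound activator Mmp14 from 12.9 ± 2.61 to 5.80 ± 3.61 FPKM, both without overlap, and Timp2 was also lower. Timp4 and Bmp1 were higher. Of the 8 fibronectin and integrin genes, 1, Itgb5, was higher without overlap and none lower. The NSC values named from these lists were picked after they were seen.

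The NSC levels of the genes around Mfap2 are given as a description. Mfap2 was chosen for the largest fall in KO NSCs, so smaller changes around it follow from that choice. Within 250 kb of Mfap2 the table lists 16 genes, of which 9 have a mean of at least 1 FPKM over the 24 libraries. Atp13a2, a lysosomal transporter gene 2.72 kb away, was at 17.8 FPKM in WT and 20.6 FPKM in KO NSCs (log2 difference 0.21), and Crocc, a ciliary rootlet gene 0.653 kb away, at 3.93 and 3.98 FPKM (0.02). Both overlapped between the genotypes.

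Sdhb, a subunit gene of respiratory complex II, was at 167 and 153 FPKM (-0.13), D4Ertd22e at 44.2 and 49.0 FPKM (0.16), Fbxo42 at 6.77 and 6.88 FPKM (0.02) and 6330545A04Rik at 1.05 and 1.09 FPKM (0.02), each with overlap. Padi4, a peptidylarginine deiminase gene, was at 0 in all WT and at most 0.0768 FPKM in KO NSCs. The other 2 did not overlap, against 16.7% of all tested genes without overlap in NSCs. Necap2 was lower in KO (64.4 to 43.1 FPKM, -0.57) and Arhgef19 higher (3.14 to 5.89 FPKM, 0.77). Padi4, 6330545A04Rik, Arhgef19, Crocc and Fbxo42 were too low in WT NSCs to fall as far as Mfap2 on this scale. Whether the change at Mfap2 reaches beyond the gene was not tested.

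**Figure D4:**
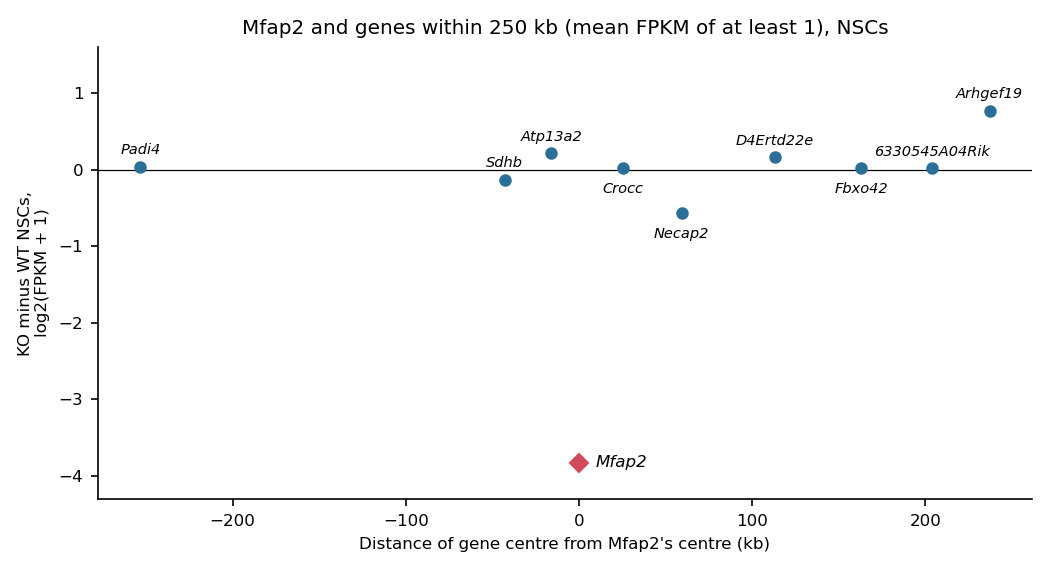
KO minus WT in NSCs on the log2(FPKM + 1) scale (vertical axis) for Mfap2 (red diamond) and the 9 genes within 250 kb that have a mean of at least 1 FPKM (blue), against the distance of each gene's centre from that of Mfap2 in kb (horizontal axis). The neighbours lie between -0.57 and 0.77, and Mfap2, which was chosen for its fall in KO NSCs, at -3.82.

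The genes most like Mfap2 over the 24 libraries, by Pearson correlation of log2(FPKM + 1) among the tested genes outside the 10, were Prom1 (r = 0.975), Hoxb2 (0.967), Tgfb1i1 (0.960), Iqgap2 (0.959), Meis2 (0.958), Hoxa2 (0.958), H1f0 (0.955) and Fign (0.954). These values are a description, since libraries of a group share their stage and genotype and Mfap2 differs mostly between stages. Prom1, a membrane glycoprotein gene used as a stem cell marker, was at 33.4 and 34.1 FPKM in WT and KO day 7 cells and at 16.2 and 5.47 FPKM in WT and KO NSCs. Hoxa2, a hindbrain patterning gene, was at 31.1 and 24.05 FPKM at day 7 and at 22.0 and 4.49 FPKM in NSCs. At day 9 Hoxa2 was higher in KO, at 44.85 FPKM in WT and 71.3 FPKM in KO. Meis2, which encodes a Hox cofactor, was at 38.3 and 35.1 FPKM at day 7 and at 26.0 and 7.99 FPKM in NSCs. Hoxb2 was lower in KO before NSCs too, at 64.45 and 33.1 FPKM at day 7 and 86.9 and 55.9 FPKM at day 9. In NSCs Hoxb2 was at 10.8 and 2.23 FPKM. The NSC libraries in which Mfap2 was low are among the 24 used for the ranking, so a low KO NSC level in these genes follows in part from how they were picked.

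Among the 9 tested members the highest correlations over the 24 libraries were those of Eln with Efemp2 (r = 0.913), Fbn1 with Efemp2 (0.839) and Fbn1 with Fbn2 (0.839), and that of Mfap2 was highest with Ltbp1 (0.829). Mfap2 and Ltbp1 both had their highest group means at day 9 and low values in KO NSCs. Fbln1 had little to do with Mfap2 (0.108), and Mfap2 and Fbln2, the members with the lowest KO to WT ratios in NSCs, were not alike over all stages (0.0887).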

How the data were processed

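The authors made stranded mRNA libraries, trimmed the single-end reads with Trim Galore 0.6.6, aligned them to mm9 with TopHat2 2.1.1, and removed ribosomal RNA and X-chromosome reads before running Cuffdiff. The deposited table holds the authors' FPKM for each gene and library, each with an estimate status in a column of its own. The library normalization and whether Cuffdiff counted by strand are not given in the sources used here. It has 36 FPKM columns, of which 12 belong to other samples and were not used. Genes outside X and Y with a mean of at least 1 FPKM and no failed estimate (12105) were fitted with limma 3.58.1 in R 4.3.3 on log2(FPKM + 1), all 8 groups together, with trend and robust settings, two-sided and Benjamini-Hochberg adjusted, and called at an adjusted p under 0.05. The script was tested on simulated data. The members and lists were chosen with earlier results of these data known. Named were all members, up to 3 called genes per direction in each list and tested KO comparison, genes within 250 kb of Mfap2 and the 8 genes most correlated with Mfap2. Alternatives were another added constant (0.1), a common sum of FPKM, no minimum level, the compared groups fitted alone, a replicate block and each library left out. Same-numbered WT and KO libraries deviated together weakly in mESCs (r = 0.289, 0.435 and 0.141) and NSCs (0.335, 0.184 and 0.240), and not at day 7 or day 9. The sample labels give replicate numbers only and do not say that these libraries were paired. The main fit did not pair them.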

Additional observations from a re-analysis of the deposited data

Results flagged for a closer look

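By FPKM, in 4 cases every KO library of a member lay on one side of every WT library at one stage and on the other side at another stage. The 3 that involve NSCs were not tested, since the NSC values are those on which the genes were chosen. Mfap4 was lower in KO at day 7 and day 9 and higher in KO NSCs, so its log2 KO effect in NSCs exceeded that at day 7 by 2.11 and that at day 9 by 2.47. Ltbp1 was higher in KO at day 7 and lower in KO NSCs, a change of -1.23. The fourth case, Mfap5 in mESCs and at day 9, is a separation in mESCs only, since its day 9 libraries tie at 1 read between the genotypes and its day 9 difference was not called (0.20, limma with no minimum level, adjusted p = 0.577). The change of 0.85 between those stages passed the test in the same fit (adjusted p = 0.0178) and consists mostly of the mESC difference of -0.66.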

How the results depend on the processing

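Of 1263 values of single member differences under the alternatives, 1205 kept their side of the threshold or stayed within the spread, none turned a called direction, 28 lost a call, 26 gained one and 4, all Mfap2 contrasts with NSCs, moved with the added constant or the scaling. Counts of members called changed as follows, and the cause was not tested. In mESCs the count of 0 became 1 with no minimum level (Mfap5). With the replicate block, which pairs same-numbered libraries, it became 1 at day 7 (Mfap4, adjusted p = 0.0462), where same-numbered libraries did not deviate together, 2 instead of 1 at day 9 (Mfap4 and Fbn2) and 1 instead of 0 for the day 9 minus mESC difference (Mfap4, adjusted p = 0.0289). The block changed no other count beyond 1.5 times, and no call in mESCs. At day 9 the count was 0 with 0.1 as the added constant and 2 (Mfap2 and Fbn2) with the groups alone. For the day 9 minus mESC difference it was 1 with no minimum level (Mfap5). WT day 7 against mESCs gave 7 in place of 4 with a common sum of FPKM, WT day 9 against day 7 gave 2 in place of 4 with 0.1, and KO day 9 against day 7 gave 5 in place of 3 with the groups alone. Leaving out 1 library gave 0 to 1 at day 9, 3 to 7 for WT day 7 against mESCs, 2 to 4 for WT day 9 against day 7 and 1 to 3 for KO day 9 against day 7. The number of reads limits Mfap2 in KO NSCs and mESCs and Mfap5 after mESCs.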
